A study of Mus musculus with 64 samples.

Results

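The comparison set the response of the liver to a high-sucrose diet (HSD) against the response of white adipose tissue (WAT) in control mice. Its members were the 16 libraries labelled CTRL from these 2 tissues, of 64 libraries in the whole series, chosen by the tissue, genotype and diet in the labels. The 4 groups were liver on chow, liver on HSD, WAT on chow and WAT on HSD, with 4 libraries each. All donors were male wild-type C57BL/6J mice, killed at 16 weeks of age. The chow groups ate a standard diet throughout, and the HSD groups were switched to the high-sucrose diet at 8 weeks of age and kept on it for 8 weeks. The remaining libraries came from heart, from muscle and from mice mutant for Pklr, the gene of liver pyruvate kinase, and entered only 1 alternative fit. The design text gives 4 mice per diet and genotype and says that all tissues were taken from them, so the liver and WAT libraries came from the same 8 mice. Which libraries share a mouse is not stated, and the test treats the 16 libraries as independent. Neither the fat depot nor the hour of killing is given in the sources used here.

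Sucrose is split in the gut into glucose and fructose. The liver clears most of the fructose that leaves the gut, breaks it down in a route opened by ketohexokinase, and turns part of the carbon into fatty acids, a route called de novo lipogenesis. White fat runs the same lipogenic enzymes, mostly under insulin and glucose, and stores the product as triglyceride. In both tissues the transcription factors SREBP-1c and ChREBP (gene Mlxipl) drive these genes, so the question put to the data was which genes answered the diet in the same direction in both tissues and which did not.

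Libraries held 8211776 to 12061137 estimated counts in liver and 7791836 to 11927089 in WAT. The marker transcripts followed the tissue labels: 15 adipocyte genes summed to 38280 to 55880 TPM (transcript abundance scaled for transcript length and library depth) in WAT and 120.5 to 186.2 in liver, and 15 hepatocyte genes summed to 61200 to 124100 TPM in liver and 2180 to 4370 in WAT. Pklr, the gene mutated in the other genotype, was at 61.6, 138.9, 141.2 and 110.3 TPM in liver on chow and at 263.2, 215.9, 217.2 and 154.1 on HSD, and at most 0.811 TPM in any WAT library. It was therefore not among the genes tested in both tissues. Several libraries stood apart. Liver chow replicates 1 and 3 were high in acute phase transcripts, and in liver HSD replicate 3 and WAT chow replicates 2 and 4 the counts leaned towards long transcripts. The counts also leaned by length between the diets: the slope of a library's log2 count deviation per doubling of transcript length averaged 0.0746 in WAT on chow and -0.0746 in WAT on HSD, with no overlap between those groups, and -0.0272 and 0.0272 in liver. Results that rest on these libraries are given with and without them. In bulk tissue, fewer cells of a type and less RNA per cell cannot be told apart.

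**Figure D1:**
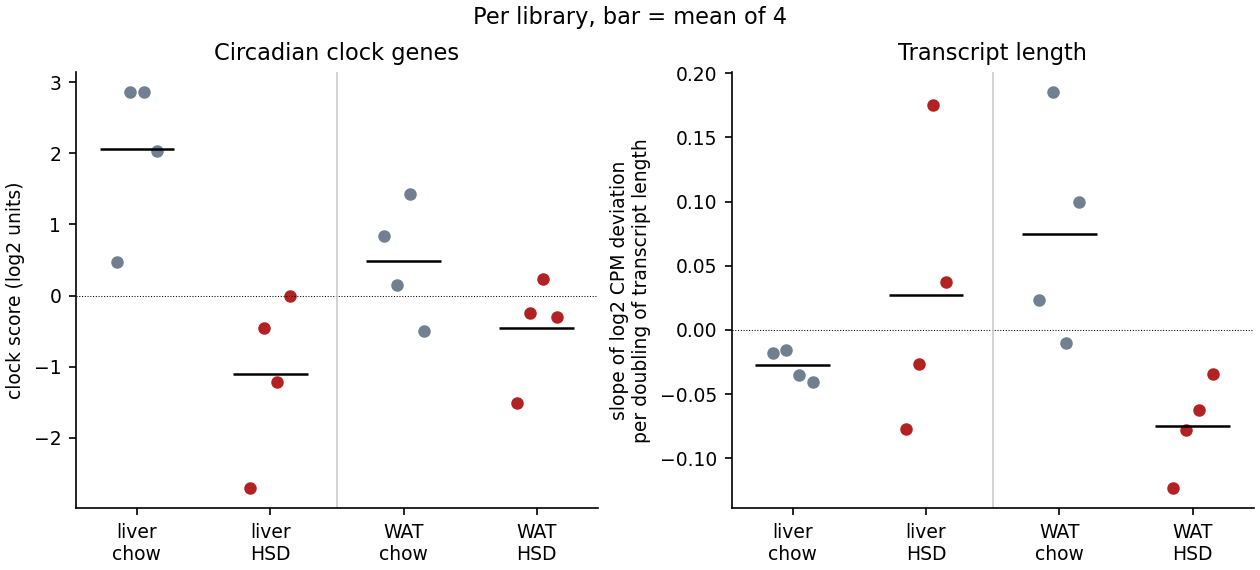
Each point is 1 library and each bar the mean of 4. Left, a clock score in log2 units (the mean of clock output and repressor genes less the mean of clock activators) by tissue and diet. Right, the slope of log2 count deviation per doubling of transcript length. In liver the clock scores of the diets do not overlap (0.47 to 2.86 on chow, -2.71 to -0.01 on HSD), and in WAT the length slopes do not overlap (-0.0098 to 0.1853 on chow, -0.1234 to -0.0346 on HSD).

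In the main fit, more genes passed the threshold in liver than in WAT. Of 10416 genes expressed in both tissues, 442 rose on HSD in liver (4.24% of those tested) and 410 fell (3.94%), while in WAT 192 rose (1.84%) and 222 fell (2.13%). Adjusted p-values here and below are from edgeR's quasi-likelihood test with Benjamini-Hochberg adjustment over all 10416 genes, and a call is an adjusted p under 0.05. The diet response itself differed between the tissues for 589 genes (5.65%): it was more positive in liver for 364 (3.49%) and more negative in liver for 225 (2.16%). In 529 of these 589 genes the estimates had opposite signs in the 2 tissues, which choosing genes by a large difference favours. Over all genes 46.6% had estimates of the same sign. Both tissues were past the threshold for 51 genes, which is 5.99% of the liver calls, beside 3.97% of all genes called in WAT, and 12.3% of the WAT calls, beside 8.18% of all genes called in liver. Of these, 32 changed in the same direction (0.307% of genes tested), 22 rising and 10 falling, and 19 changed in opposite directions (0.182%). For 545 genes called in liver and 267 called in WAT the difference between tissues did not pass, so most calls in 1 tissue are not shown to be particular to it.

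These counts moved with single libraries. The 589 differences became 332 without liver chow replicate 4, 1054 without liver HSD replicate 1, 375 without liver HSD replicate 2, 280 without liver HSD replicate 3, 268 without WAT chow replicate 2, 313 without WAT chow replicate 4, and 247, 303 and 359 without WAT HSD replicates 1, 2 and 4. The 852 liver calls became 512, 483 and 506 without liver chow replicate 4 and HSD replicates 2 and 4. The 414 WAT calls became 142, 702 and 172 without WAT chow replicates 2, 3 and 4, and 127, 151 and 195 without WAT HSD replicates 1, 2 and 4. Shared genes numbered 12 to 43 over the 16 leave-outs and opposite genes 3 to 49, both highest without WAT chow replicate 3. Opposite genes numbered 5, 5, 3, 4 and 6 without WAT chow replicates 2 and 4 and WAT HSD replicates 1, 2 and 4, and 12 without liver chow replicate 4. Shared genes numbered 19, 17, 18, 12, 12, 13, 12, 16 and 12 without liver chow replicate 4, liver HSD replicates 2 and 4, WAT chow replicates 2 and 4 and WAT HSD replicates 1, 2, 3 and 4. The split of higher and lower calls also depended on scaling. With TMM factors computed over both tissues together, 561 genes rose and 341 fell in liver, and 28 shared genes rose and 4 fell. With limma on log2(TPM + 1), a scale on which the median gene moved by 0.07 in liver and -0.17 in WAT, the difference was higher in liver for 1463 genes and lower for 93, liver had 573 rises and 152 falls, and WAT had 91 rises and 1071 falls. Nor did liver always have more calls than WAT. Limma voom called 598 genes in liver and 735 in WAT, and limma on log2(TPM + 1) called 725 and 1162. Adjusting for each library's clock score left 47 and 113. With liver HSD replicate 3 left out the counts were nearly equal, at 573 and 574. In every other fit with counts for each tissue, liver had more. All 32 shared genes kept the same sign in both tissues, and all 19 opposite genes kept opposite signs, in every fit run that tested them. These genes were chosen for their calls in the same libraries, which favours kept signs. The sizes of their changes are plotted by tissue in the scatter of the 2 responses.

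**Figure D2:**
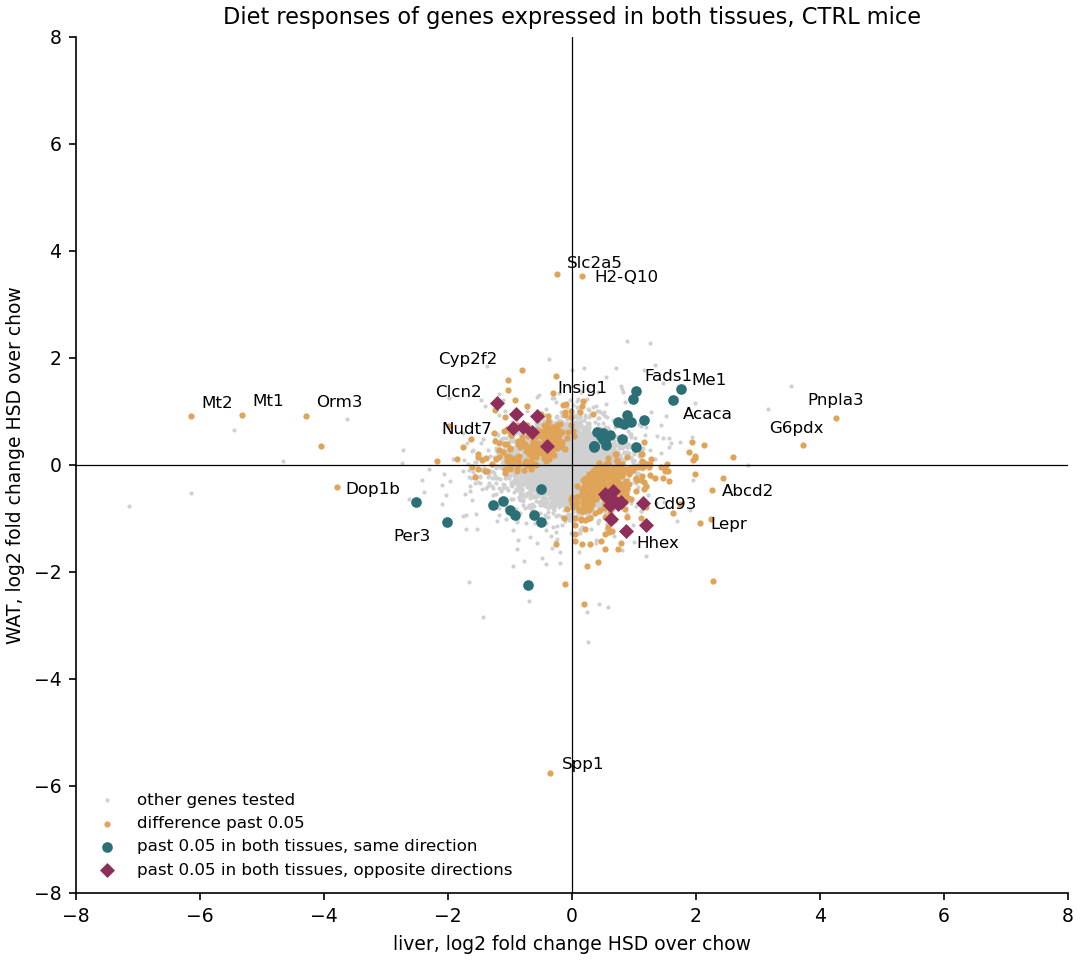
Each point is 1 of 10416 genes, with its log2 fold change on HSD over chow in liver (x axis) and in WAT (y axis). Green circles are the 32 genes past 0.05 in both tissues in the same direction, purple diamonds the 19 past 0.05 in opposite directions, and orange points other genes whose difference between tissues passed. Most large changes lie along 1 axis, as for G6pdx and Pnpla3 in liver and Slc2a5 and H2-Q10 in WAT.

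The shared rises were led by genes of fatty acid synthesis and its supply. Me1, the cytosolic malic enzyme that makes NADPH for lipogenesis (GRCm38 chr9:86581363-86695914), was at 41.9, 68.3, 86.4 and 64.6 TPM in liver on chow and at 226, 270, 289 and 180 on HSD. In WAT it was at 134, 325, 432 and 392 on chow and at 650, 822, 818 and 702 on HSD. Diets did not overlap in either tissue, and the log2 fold change was 1.76 ± 0.29 in liver (approximate SE here and below, n = 4 libraries per group, adjusted p = 0.00199) and 1.42 ± 0.28 in WAT (adjusted p = 0.0132). Acaca, the acetyl-CoA carboxylase that commits carbon to fatty acids, rose by 1.63 ± 0.27 in liver (adjusted p = 0.00206) and 1.21 ± 0.26 in WAT (adjusted p = 0.0197). The WAT call of Acaca was lost without WAT chow replicate 2, and those of Me1 in both tissues held with each of the 16 libraries left out.

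The paired desaturases that make long polyunsaturated fatty acids, Fads1 and Fads2, which lie side by side on chromosome 19 (chr19:10182877-10196874 and chr19:10062765-10101503), rose in both tissues. Fads1 was at 152, 195, 180 and 163 TPM in liver on chow and at 392, 372, 464 and 305 on HSD. WAT libraries were at 23.8, 35.7, 49.9 and 44.1 on chow and at 83.6, 92.4, 85.1 and 81.8 on HSD. Again no HSD library overlapped a chow library. The change was 1.03 ± 0.17 in liver (adjusted p = 0.00191) and 1.37 ± 0.17 in WAT (adjusted p = 0.000544), and it held in all 16 leave-outs in both tissues. Fads2 rose by 1.17 ± 0.17 in liver and 0.85 ± 0.18 in WAT, where the call was lost without WAT chow replicate 4 and without WAT HSD replicate 2.

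Insig1, an endoplasmic reticulum protein that holds SREBP in check and is itself a target of SREBP (chr5:28071412-28078662), was at 71.8, 73.2, 63.9 and 58 TPM in liver on chow and at 125, 173, 139 and 130 on HSD. WAT held 24.9, 44.9, 51.8 and 59.8 on chow and at 84.0, 139, 87.5 and 62.5 on HSD. The HSD values lay above the chow values in both tissues, narrowly so in WAT, and the changes were 0.98 ± 0.23 and 1.23 ± 0.23. Its promoter is shown because it holds an E-box (CACGTG, both strands), the hexamer bound by clock factors and related helix-loop-helix proteins. The window runs from 250 bases before to 50 after the RefSeq start (GRCm38.p6 chr5:28071162-28071461, plus strand), with the match in capitals.

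Insig1 promoter: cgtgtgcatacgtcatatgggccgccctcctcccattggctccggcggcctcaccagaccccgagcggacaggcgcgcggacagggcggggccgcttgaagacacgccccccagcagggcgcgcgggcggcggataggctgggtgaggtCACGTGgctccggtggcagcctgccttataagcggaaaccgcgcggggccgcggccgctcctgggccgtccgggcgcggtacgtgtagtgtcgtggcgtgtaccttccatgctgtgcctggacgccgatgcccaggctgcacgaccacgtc

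An E-box stood in the windows of 5 of the 19 shared rises that had a window (Chchd3, Ctsd, Insig1, Pgrmc2 and Ppp1r3c), beside 8.09% of all 27025 genes with a window. A SREBP site (TCACCCCAC) was found in none of the 19 windows and in 0.614% of all genes. A match describes letters, not binding.

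Other shared rises included the following genes. Acat2, a cytosolic thiolase of the sterol route, rose by 0.89 ± 0.21 in liver and 0.92 ± 0.21 in WAT. Ppp1r3c, a glycogen-targeting subunit of protein phosphatase 1, rose by 0.84 ± 0.17 and 0.77 ± 0.17. Pdk1, a kinase that switches pyruvate dehydrogenase off, rose by 0.95 ± 0.20 and 0.80 ± 0.20, and Cs, the citrate synthase, by 0.81 ± 0.11 and 0.48 ± 0.10. Gpd2, Pdha1 and Dbi were also among the 22. Liver calls of Acat2, Ppp1r3c, Pdk1 and Cs held in all 16 leave-outs, whereas their WAT calls held in 12, 11, 8 and 15. The difference between tissues passed for 1 of the 22 shared rises, Pgrmc2 (1.03 in liver and 0.33 in WAT, adjusted p = 0.00651), a gene chosen after its values were seen. With the length trend removed, the shared genes numbered 21, of which 18 rose. Without WAT chow replicates 2 and 4, they numbered 2. The 10 shared falls included Abcc3, a bile salt and drug exporter (-1.27 ± 0.18 in liver, -0.75 ± 0.19 in WAT), Nrp1, a co-receptor for vascular growth factors (-0.99 ± 0.23 and -0.85 ± 0.22), Plce1 (-0.92 ± 0.24 and -0.94 ± 0.21), Cdk18 (-0.61 ± 0.17 and -0.93 ± 0.23), Syne3 (-1.12 ± 0.27 and -0.69 ± 0.19) and Dst, a cytoskeletal linker (-0.49 ± 0.15 and -1.07 ± 0.15). Dop1b fell in both tissues and more in liver (-2.51 ± 0.22 against -0.69 ± 0.18, difference adjusted p = 0.00367).

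Of 12 genes of fatty acid synthesis tested, 4 rose and none fell in liver, 6 rose and none fell in WAT, and 2 rose in both. Over all genes, 4.24% rose in liver and 1.84% in WAT. The list had medians of 1.07 and 1.22 beside -0.01 and 0 over all genes tested. The WAT count was 1 without liver HSD replicate 3 and WAT chow replicate 2, and 0 without WAT chow replicates 2 and 4, with medians of 1.16 and 1.36. Elovl6, which lengthens palmitate, rose in WAT by 2.28 ± 0.42 (adjusted p = 0.00937) and stood at 1.26 ± 0.41 in liver (adjusted p = 0.0645). Acss2, which makes acetyl-CoA from acetate, rose in WAT by 2.31 ± 0.48 and stood at 0.89 ± 0.46 in liver. Slc25a1, the mitochondrial citrate carrier, rose in WAT by 1.24 ± 0.25 and stood at 0.10 ± 0.25 in liver. None of these 3 differed between the tissues past the threshold (adjusted p = 0.272, 0.179 and 0.0679). Scd1, the stearoyl-CoA desaturase, was at 809 to 3566 TPM in liver on chow and 8261 to 11280 on HSD, a rise of 1.99 ± 0.35. In WAT it went from 5766 to 15130 on chow to 20120 to 25060 on HSD, which did not pass (1.16 ± 0.35, adjusted p = 0.0671). The factors themselves did not pass in either tissue: Srebf1 stood at -0.08 ± 0.30 in liver and 0.69 ± 0.29 in WAT, and Mlxipl at -0.32 ± 0.24 and 0.62 ± 0.24.

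Other lipid genes changed in liver and differed between the tissues. G6pdx, the glucose-6-phosphate dehydrogenase that opens the pentose phosphate route (chrX:74409483-74428880), was at 2.34, 2.66, 3.63 and 2.10 TPM in liver on chow and at 48.4, 38.2, 56.4 and 20.6 on HSD. In WAT it was already at 177, 232, 199 and 201 TPM on chow and was at 195, 241, 209 and 231 on HSD. The liver diets were far apart and the WAT diets overlapped. The change was 3.72 ± 0.24 in liver (adjusted p = 1.42e-07), 0.36 ± 0.19 in WAT, and 3.36 ± 0.30 for the difference (adjusted p = 3.29e-05). Pnpla3, a lipid droplet hydrolase, was at 0.125, 0.204, 1.14 and 0.350 TPM in liver on chow and 12.5, 12.0, 9.70 and 4.47 on HSD. Its WAT level was 193 to 410 TPM on chow and 418 to 548 on HSD, and the difference between responses was 3.38 ± 0.61 (adjusted p = 0.00651). Pnpla3 was near the floor in liver on chow and passed the count filter there through the HSD group. The size of its fold is therefore uncertain and is no bound. On HSD the liver level of both genes remained below every WAT library.

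Elovl5, the elongase that works with Fads1 and Fads2, was at 115, 207, 172 and 156 TPM in liver on chow and at 720, 674, 743 and 551 on HSD, against 46 to 61.8 and 58.1 to 68.0 in WAT. It rose by 1.94 ± 0.16 in liver, stood at 0.43 ± 0.15 in WAT, and differed by 1.51 ± 0.22 (adjusted p = 0.00156). Acsl5, an acyl-CoA synthetase, rose by 1.27 ± 0.16 in liver and stood at 0.11 ± 0.16 in WAT (difference adjusted p = 0.00933). Insig2, the second SREBP-retaining protein, rose by 1.43 ± 0.17 in liver and stood at -0.05 ± 0.17 in WAT (difference adjusted p = 0.00425). Fads3, the remaining gene of the desaturase cluster, rose by 1.2 ± 0.24 in liver, with overlapping TPM (1.85 to 4.72 on chow, 3.89 to 9.08 on HSD), and stood at -0.39 ± 0.20 in WAT (difference adjusted p = 0.0101). Gpam and Gpat4 encode 2 glycerol-3-phosphate acyltransferases, which start triglyceride synthesis, and their differences had opposite signs. Gpam rose by 1.16 ± 0.16 in liver with -0.45 ± 0.16 in WAT (difference 1.61 ± 0.23, adjusted p = 0.00156). Gpat4 fell by 0.75 on the log2 scale in liver with 0.39 ± 0.14 in WAT (difference -1.14 ± 0.20, adjusted p = 0.00596). Lipa, the lysosomal acid lipase, rose by 0.76 ± 0.09 in liver and stood at -0.34 ± 0.09 in WAT (difference adjusted p = 0.000467). The difference calls of G6pdx, Pnpla3, Elovl5, Acsl5, Insig2, Fads3, Gpam, Gpat4 and Lipa held in all 16 leave-outs and with the length trend removed. Of 7 desaturases and elongases tested, 5 rose in liver and 2 in WAT, where 4.24% and 1.84% of all genes did. The plot of lipid and sugar genes shows genes that moved in both tissues beside genes that differed between them.

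**Figure D3:**
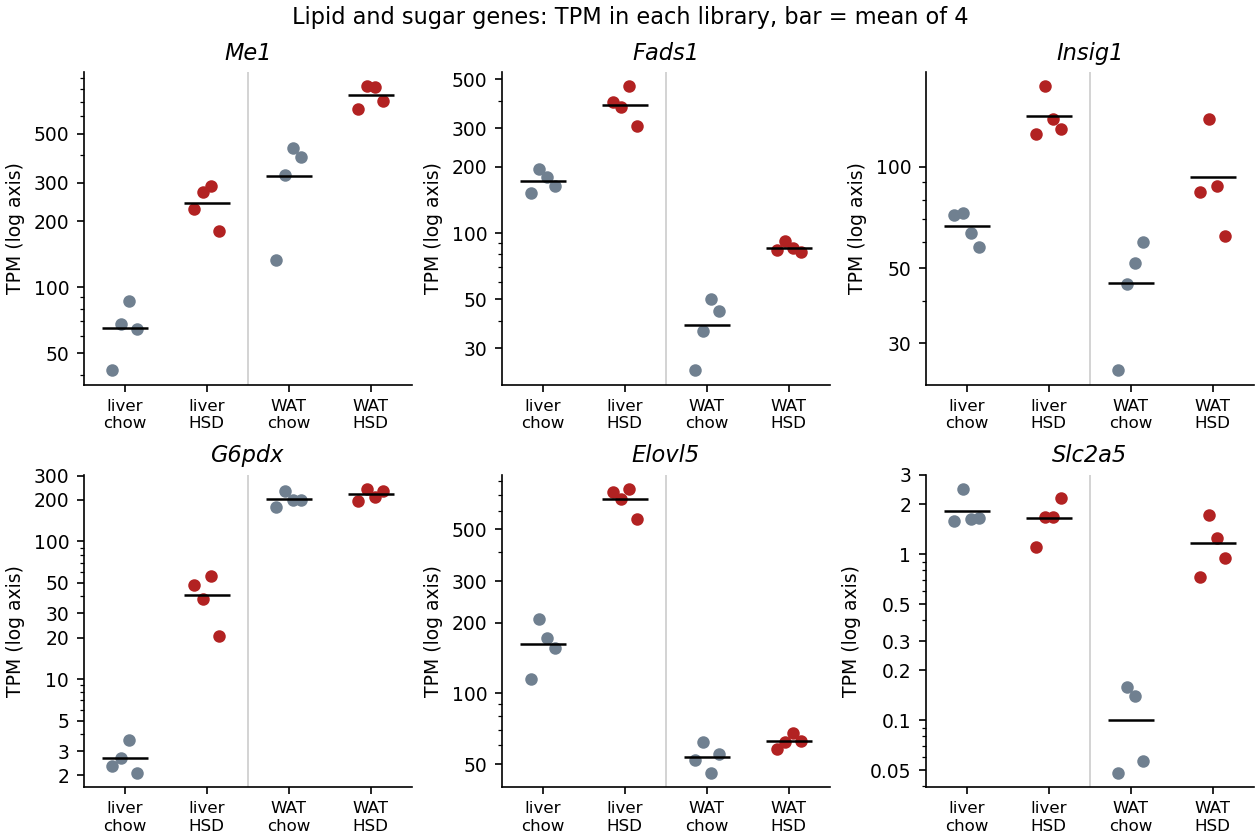
TPM of 6 genes in each of the 16 libraries on log axes, by tissue and diet, with bars at the mean of 4. Me1, Fads1 and Insig1 are higher on HSD in both tissues, G6pdx and Elovl5 are far higher on HSD in liver and overlap between the diets in WAT, and Slc2a5 goes from 0.0485 to 0.159 TPM on chow to 0.728 to 1.73 on HSD in WAT.

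Among the sugar genes, a fructose transporter rose in WAT. Slc2a5, the fructose transporter GLUT5 (chr4:150119344-150144168), was at 0.0485, 0.159, 0.140 and 0.0569 TPM in WAT on chow and at 0.728, 1.73, 1.24 and 0.945 on HSD. In liver it was at 1.59, 2.48, 1.62 and 1.64 on chow and 1.11, 1.67, 1.66 and 2.19 on HSD. All WAT libraries on HSD lay above all on chow, while the liver diets overlapped. The level was low: the 4 WAT libraries on chow held 9 estimated counts in all, and those on HSD 85.6. The fitted change was 3.56 ± 0.42 in WAT (adjusted p = 0.000329), -0.25 ± 0.28 in liver, and -3.80 ± 0.51 for the difference (adjusted p = 0.00126), and both calls held in all 16 leave-outs. With so few counts on chow the size of this fold is uncertain and is no bound, and the gene passed the count filter in WAT through the HSD group. Among the other 7 of 8 tested genes of fructose uptake and breakdown, none passed in either tissue. Khk, the ketohexokinase, stood at 0.37 ± 0.25 in liver and 0.80 ± 0.30 in WAT.

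Pyruvate kinase showed the division of isoforms between the tissues. Pkm, the form of most tissues outside liver, was at 164, 218, 267 and 242 TPM in WAT on chow and at 299, 338, 355 and 312 on HSD, and at 4.43 to 6.88 in liver on either diet. It rose in WAT by 0.77 ± 0.14 (adjusted p = 0.00849) and stood at -0.19 ± 0.16 in liver, a difference of -0.95 ± 0.21 (adjusted p = 0.0174). The liver form Pklr is described above. Of 27 genes of pyruvate oxidation and the citric acid cycle, 7 rose and 1 fell in liver and 5 rose in WAT. All-gene shares were 4.24%, 3.94% and 1.84%. Among subunits of pyruvate dehydrogenase, Pdha1 rose in both tissues (0.62 ± 0.13 in liver and 0.56 ± 0.13 in WAT) without a called difference. Pdhb rose in WAT by 0.99 ± 0.15 with 0.13 ± 0.15 in liver, and Dlat rose in liver by 1.16 ± 0.14 with 0.43 ± 0.13 in WAT. The differences of Pdhb and Dlat passed (adjusted p = 0.0311 and 0.0383) and held in 8 and 7 of 16 leave-outs. After removal of the length trend both missed the threshold (adjusted p = 0.0648 and 0.091). Pdk4, a second pyruvate dehydrogenase kinase, rose in liver by 1.53 ± 0.29 with 0.02 ± 0.25 in WAT (difference adjusted p = 0.0331, held in 7 of 16). Pcx, the pyruvate carboxylase, rose in WAT by 0.74 ± 0.19 with -0.24 ± 0.19 in liver (difference adjusted p = 0.0401, held in 4 of 16). Gpt, an alanine aminotransferase, fell by 0.97 on the log2 scale in liver and stood at 0.55 ± 0.19 in WAT (difference -1.53 ± 0.28, adjusted p = 0.00651, held in all 16). Of the sterol list, 2 genes rose in liver, among them Sc5d (0.87 ± 0.18). In WAT, Cyp51 (0.97 ± 0.25) and Tm7sf2 (1.34 ± 0.36) rose, and none of the 21 genes tested differed between the tissues at 0.05, where 5.65% of all genes did. The WAT calls of Cyp51 and Tm7sf2 held in 8 and 7 of 16 leave-outs.

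The 12 genes that rose in liver and fell in WAT included several of the vessel wall. Tek, the angiopoietin receptor of endothelial cells (chr4:94739086-94874976), was at 1.75, 2.48, 2.04 and 2.13 TPM in liver on chow and at 3.06, 3.81, 3.65 and 3.99 on HSD. In WAT it was at 25.6, 25.9, 18.3 and 23.6 on chow and at 13.5, 14.4, 15.3 and 15 on HSD. The diets separated in both tissues, in opposite order. It rose by 0.66 ± 0.14 in liver (adjusted p = 0.00967), fell by 0.50 on the log2 scale in WAT (adjusted p = 0.0321), and differed by 1.16 ± 0.19 (adjusted p = 0.00367). Cd93, a C-type lectin of endothelium, was at 0.545, 0.818, 0.578 and 0.574 TPM in liver on chow, at 1.33, 1.39, 2.15 and 1.13 on HSD, and in WAT at 24.5 to 49.8 and 17.4 to 20.1. Its changes were 1.14 ± 0.24 and -0.71 ± 0.18. Pecam1, the junction protein CD31, changed by 0.57 ± 0.15 and -0.61 ± 0.13, with 4.88 to 6.11 TPM on chow and 7.33 to 12.3 on HSD in liver, and 102 to 137 and 68.4 to 78.9 in WAT. Ehd3, a membrane-trafficking ATPase, changed by 0.62 ± 0.15 and -0.75 ± 0.15, Fgd5, an endothelial exchange factor, by 0.75 ± 0.22 and -0.73 ± 0.16, and Hhex, a homeobox factor of liver and vessels, by 0.88 ± 0.24 and -1.25 ± 0.34. The difference between tissues passed for Tek, Cd93, Pecam1, Ehd3, Fgd5 and Hhex in all 16 leave-outs. The call in each tissue by itself was less firm: of these 6 genes, only Ehd3 kept both tissue calls in all 16, and Fgd5 kept its liver call in 3 and Hhex its WAT call in 4.

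Other endothelial markers were described by list. Of 12 tested, 2 rose in liver (4.24% of all genes did), 5 fell in WAT (2.13% of all genes did), and 6 differed with the liver response higher, beside 3.49% of all genes. The medians were 0.41 in liver, -0.49 in WAT and 0.84 for the difference. Kdr and Flt1, receptors for vascular endothelial growth factor, differed by 1.0 ± 0.23 and 1.11 ± 0.26 without passing in either tissue. Vwf, von Willebrand factor, fell by 1.81 on the log2 scale in WAT with 1 high library among the 4 on chow (15.8, 11, 11 and 40.2 TPM against 3.44 to 6.21). The summed TPM of 13 endothelial genes was 612.2 to 870.3 in WAT on chow and 447.2 to 553.8 on HSD, without overlap, and 54.9 to 82.55 and 62.52 to 88.36 in liver, where the diets overlapped. With the length trend removed, 3 rose in liver, 3 fell in WAT and 5 differed. Without liver chow replicates 1 and 3, 3 differed, without WAT chow replicates 2 and 4, 3 differed, and without liver HSD replicate 3 and WAT chow replicate 2, 2 differed, with medians of the difference between 0.69 and 0.87. Length moved with this set: 8 of the 12 genes that rose in liver and fell in WAT were in the longest of 3 equal length classes of genes. The part of transcript length in these responses was tested only by removing its trend, after which 12 opposite genes were called, 8 of them among the original 19.

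**Figure D4:**
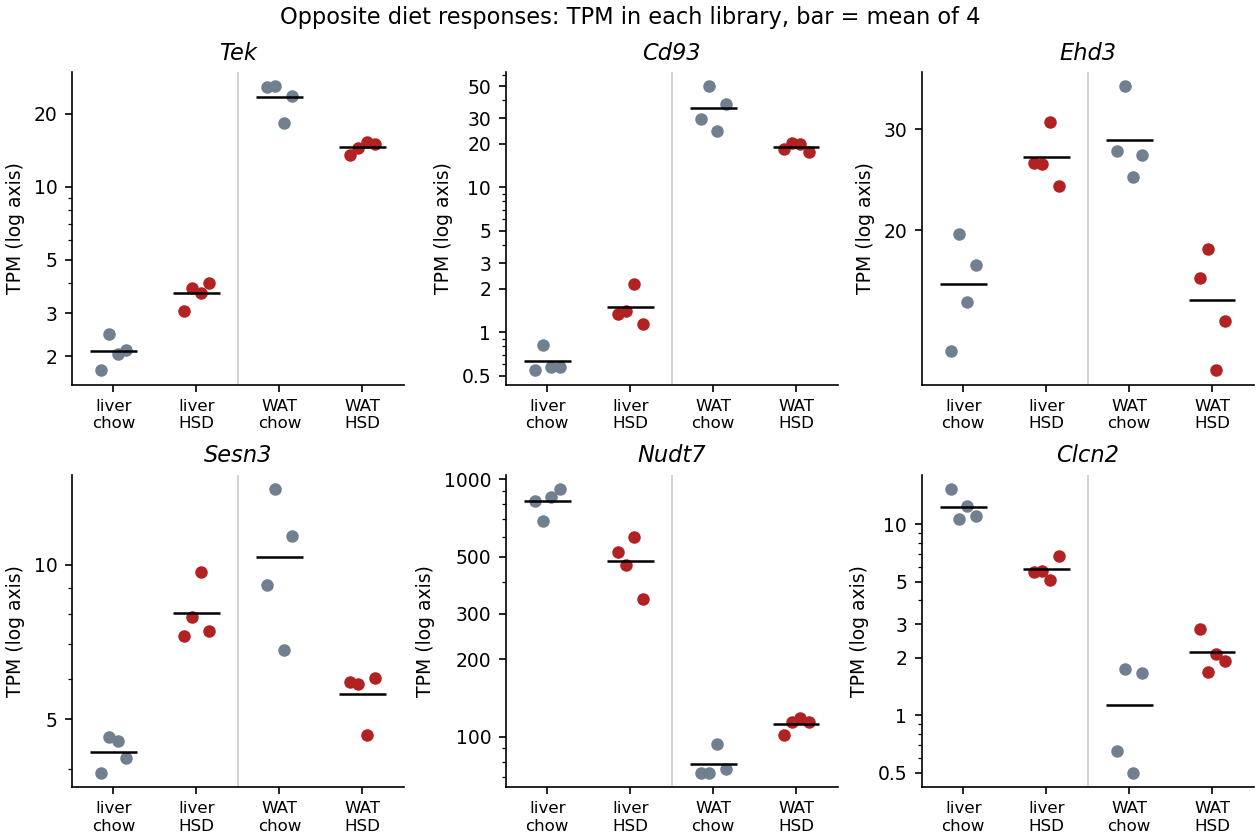
TPM of 6 genes called in opposite directions in the 2 tissues, in each of the 16 libraries on log axes, with bars at the mean of 4. Tek, Cd93, Ehd3 and Sesn3 are higher on HSD in liver and lower on HSD in WAT, and Nudt7 and Clcn2 show the reverse.

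The rest of the 12 had other roles. Sesn3, a sestrin that restrains mTORC1 signalling, was at 3.94, 4.62, 4.53 and 4.20 TPM in liver on chow and at 7.26, 7.92, 9.66 and 7.41 on HSD, against 9.13, 14.1, 6.83 and 11.4 and then 5.91, 5.86, 4.66 and 6.00 in WAT. Its diets were apart in both tissues, with changes of 0.79 ± 0.16 and -0.70 ± 0.16 and a difference of 1.49 ± 0.22 (adjusted p = 0.00253). Cemip2, a cell surface hyaluronidase (0.66 ± 0.15 and -0.65 ± 0.15), and Plxnc1, a semaphorin receptor (0.64 ± 0.18 and -1.01 ± 0.22), followed the same course. Their difference calls held in all 16 leave-outs. The RORE core (TAGGTCA, both strands) was found in 2 of 11 promoter windows of the 19 opposite genes, those of Ankrd50 and Ehd3, beside 2.97% of all genes.

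The 7 genes that fell in liver and rose in WAT were mostly metabolic. Nudt7, a peroxisomal hydrolase of coenzyme A, was at 823, 690, 858 and 921 TPM in liver on chow and at 524, 465, 598 and 343 on HSD, and in WAT at 72.5, 72.5, 93.9 and 75.1 and then 102, 114, 119 and 114. The diets did not overlap in either tissue. It fell by 0.96 on the log2 scale in liver (adjusted p = 0.00232), rose by 0.69 ± 0.16 in WAT (adjusted p = 0.0263), and differed by -1.65 ± 0.23 (adjusted p = 0.00153). Rarres2, which encodes the adipokine chemerin, changed by -0.64 ± 0.15 in liver and 0.61 ± 0.15 in WAT, from like levels on chow, 648 to 813 TPM in liver and 658 to 800 in WAT. Clcn2, a chloride channel, changed by -1.20 ± 0.23 and 1.15 ± 0.30, though in WAT its diets overlapped (0.502 to 1.75 TPM on chow, 1.69 to 2.84 on HSD). Mfsd3 changed by -0.90 ± 0.24 and 0.95 ± 0.22. The difference calls of Nudt7, Rarres2, Clcn2 and Mfsd3 held in all 16 leave-outs, while their WAT calls held in 9, 10, 7 and 10. Amacr and Smarcd2 were also among the 7. Of 27 genes for burning fatty acids and making ketone bodies, 2 fell in liver, beside 3.94% of all genes, none passed in WAT, and 2 differed with the liver response lower, beside 2.16%. Acaa1a, a peroxisomal thiolase, fell by 0.99 on the log2 scale in liver with 0.29 ± 0.20 in WAT (difference -1.28 ± 0.29, adjusted p = 0.0182, held in all 16). Hadh differed by -0.65 ± 0.18, which held in 5 of 16.

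Some matrix genes fell in WAT. Of 21 fibroblast, stellate cell and collagen genes, 6 fell in WAT, beside 2.13% of all genes, none passed in liver, and 2 differed with the liver response higher, beside 3.49%. Col6a1, a collagen VI chain, was at 158, 270, 211 and 238 TPM in WAT on chow and at 116, 110, 72.3 and 89.5 on HSD, and at 1.19 to 1.87 in liver. It fell by 0.99 on the log2 scale in WAT (adjusted p = 0.00255) and stood at 0.06 ± 0.19 in liver (difference adjusted p = 0.0222). Sparc, a collagen-binding glycoprotein, fell by 0.59 on the log2 scale in WAT, from 2915 to 3800 TPM down to 1868 to 2024, with 0.08 ± 0.13 in liver (difference adjusted p = 0.0355, held in 7 of 16). Col6a3 fell by 0.96 on the log2 scale in WAT, and its difference did not pass (adjusted p = 0.0814). Once the trend on length was removed 3 of the 21 fell in WAT, and without WAT chow replicates 2 and 4 none did. Their summed TPM was 6879 to 8553 on chow and 4497 to 5581 on HSD in WAT, without overlap.

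Spp1, osteopontin, had 21, 15, 115 and 18 estimated counts in WAT on chow and 0, 0, 1 and 1 on HSD, while liver held 345 to 763 and 304 to 693. Its fitted difference of 5.41 ± 1.30 (adjusted p = 0.0267) rests on those few WAT counts, is no bound, and held in 12 of 16 leave-outs. Spp1 passed the count filter in WAT through the chow group. Atp6v0d2, a proton pump subunit of lipid-laden macrophages, fell by 2.84 on the log2 scale in WAT, from 2.37 to 5.73 TPM down to 0.341 to 0.898, with -1.43 ± 0.49 in liver and no called difference. Cd9, a tetraspanin, rose in liver by 1.25 ± 0.19, from 12.4 to 30.3 TPM up to 39.9 to 53.6, with -0.04 ± 0.18 in WAT (difference adjusted p = 0.0113). Fabp5, a fatty acid carrier, rose in liver by 1.95 ± 0.40 with 0.52 ± 0.39 in WAT and no called difference. Of the 12 lipid-associated macrophage genes, several of which other cells also express, 7 were tested. In liver 2 of the 7 rose, beside 4.24% of all genes, and 4 means were higher and 3 lower on HSD. In WAT 2 fell, beside 2.13%, and 2 differed with the liver response higher, beside 3.49%. The summed TPM of the 12 genes was 156.9 to 518.8 in liver on chow and 709.3 to 1196 on HSD. Fabp5 alone held 397 of the 518.8 TPM in liver chow replicate 3. The WAT sums were 25760 to 31570 and 24330 to 31010. Mrc1, the mannose receptor, differed by 0.89 ± 0.18 (adjusted p = 0.0137), with 0.46 ± 0.13 in liver and -0.43 ± 0.13 in WAT. Mpeg1 differed by 1.30 ± 0.37, which held in 6 of 16. These were the 2 called differences among 15 general macrophage genes tested, beside 3.49% of all genes with a called higher liver response. Of the 15, 7 had a higher and 8 a lower response in liver, with a median difference of -0.24. In liver 1 of them rose and 1 fell, beside 4.24% and 3.94% of all genes. Over the 16 general macrophage genes the summed TPM of the diets overlapped in both tissues, 207.9 to 369.3 on chow and 213.6 to 290.9 on HSD in liver, and 1293 to 1740 and 980.8 to 1486 in WAT.

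Clock genes passed the threshold mainly in liver. Of 13 genes driven through E-boxes and D-boxes, 8 fell and none rose in liver, and 2 fell and none rose in WAT, with medians of -1.11 and -0.28, where 3.94% of all genes fell in liver and 2.13% in WAT. Of 7 activators and RORE-driven genes, 4 rose in liver, beside 4.24% of all genes, and none passed in WAT. The difference between tissues passed for 2 of the 13 E-box and D-box driven genes, both more negative in liver, beside 2.16% of all genes, and for none of the 7. Per3, a period gene of the negative limb, was at 0.473, 1.34, 1.41 and 1.41 TPM in liver on chow and at 0.138, 0.408, 0.317 and 0.384 on HSD, and in WAT at 13.6, 8.73, 15.1 and 8.25 and then 3.36, 5.65, 5.37 and 4.77. It fell by 2.01 on the log2 scale in liver (adjusted p = 0.00701) and by 1.07 in WAT (adjusted p = 0.0442), where the call held in 5 of 16 leave-outs. Arntl (BMAL1), the activator that opposes it, was at 4.42, 1.15, 1.30 and 1.76 TPM in liver on chow and at 10.4, 5.34, 6.14 and 5 on HSD. It rose by 1.60 ± 0.36 in liver and stood at 0.42 ± 0.34 in WAT, where 4.93 to 8.03 TPM on chow overlapped 5.72 to 10.6 on HSD. Npas2, its partner's relative, rose by 3.17 ± 0.64 in liver and stood at 1.04 ± 0.48 in WAT. In liver on chow Npas2 was near the floor, at 0.0604 to 0.519 TPM, so the size of this fold is uncertain and is no bound. It passed the count filter in liver mainly through the HSD group, and it is among the 4 rises counted above. Per2 and Ciart fell in liver (-1.35 ± 0.28 and -2.42 ± 0.63) and stood at -0.23 ± 0.25 and -0.28 ± 0.62 in WAT. Differences of Per3, Arntl, Npas2, Per2 and Ciart did not pass. Those of Cry2 (-0.72 ± 0.19) and Bhlhe40 (-1.53 ± 0.38) did, and held in 7 and 8 of 16. Hlf fell by 0.91 on the log2 scale in WAT (held in 4 of 16) and stood at -0.31 ± 0.21 in liver.

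The promoter windows of Per3 and Arntl are shown because each holds the element its group is named for. In Per3 (GRCm38.p6 chr4:151044616-151044915, minus strand) the D-box (TTATGTAA, both strands), found in 1.11% of all genes, occurs at -205 and -158 from the start. In Arntl (chr7:113207261-113207560, plus strand) the RORE core, found in 2.97% of all genes, occurs at +31. The table lists 2 starts for Arntl, and the window of the other start holds none of the 5 motifs searched. Matches are in capitals.

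Per3 promoter: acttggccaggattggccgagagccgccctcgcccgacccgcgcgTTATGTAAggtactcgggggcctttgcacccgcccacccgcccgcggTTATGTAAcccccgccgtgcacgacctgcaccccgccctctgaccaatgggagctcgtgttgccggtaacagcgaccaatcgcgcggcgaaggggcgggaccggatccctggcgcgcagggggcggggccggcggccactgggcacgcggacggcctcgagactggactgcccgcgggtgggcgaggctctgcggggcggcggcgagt

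Arntl promoter: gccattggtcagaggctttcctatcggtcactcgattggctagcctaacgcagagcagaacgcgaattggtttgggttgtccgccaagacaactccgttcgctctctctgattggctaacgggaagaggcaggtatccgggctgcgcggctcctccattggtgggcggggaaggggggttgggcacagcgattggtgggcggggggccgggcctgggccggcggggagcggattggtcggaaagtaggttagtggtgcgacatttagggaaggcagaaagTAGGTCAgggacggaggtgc

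An E-box stood in 4 of 11 windows of the E-box and D-box driven list (Bhlhe41, Ciart, Per1 and Tef), beside 8.09% of all genes. The list is named for these elements, so its share of matches is no result about the diet.

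Each library's clock score, the mean log2 CPM of 6 output and repressor genes (Hlf, Tef, Ciart, Dbp, Per3 and Per2) less the mean of 3 activators (Clock, Npas2 and Arntl), averaged 2.05 on chow and -1.10 on HSD in liver, and 0.48 and -0.46 in WAT. Liver diets did not overlap in it, so diet and clock score cannot be told apart in liver. With the score as a covariate, 14 differences were called, 6 higher and 8 lower in liver, 47 genes in liver (12 rose and 35 fell) and 113 in WAT (55 and 58). G6pdx (adjusted p = 0.0437), Nudt7, Tek, Sesn3 and Orm3 were among the genes whose difference remained called. No shared gene was called in that fit and 1 opposite gene, which was not among the 19. All 32 shared genes still had 1 sign in both tissues, and all 19 opposite genes had opposite signs, which their choice from these same libraries favours.

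The 3 most negative differences were those of acute phase and metal-binding genes, which were high in 2 liver chow libraries. Mt2 and Mt1, the metallothioneins that bind zinc and lie together on chromosome 8 (chr8:94172618-94173567 and chr8:94178883-94180327), led them. Mt2 was at 2104, 11.7, 380 and 15.7 TPM in liver on chow and at 13, 10.8, 7.53 and 6.08 on HSD, and in WAT at 245, 145, 444 and 246 and then 533, 404, 484 and 352. Replicates 1 and 3 were far above the other chow livers, which were near or within the HSD range. The fitted differences were -7.05 ± 1.74 for Mt2 and -6.26 ± 1.54 for Mt1 (adjusted p = 0.0355 for both), and they held in 6 and 7 of 16 leave-outs. Orm3, an acute phase glycoprotein, was at 145, 3.03, 18.2 and 3.23 TPM in liver on chow and 0.751 to 4.30 on HSD (difference -5.21 ± 1.30, adjusted p = 0.0331, held in 8 of 16). Without liver chow replicates 1 and 3 none of these 3 differences was called. Of 12 acute phase genes, 6 fell in liver, beside 3.94% of all genes, with a median of -1.54, and without those 2 libraries none did, with a median of -0.09. Saa3 fell by 4.65 on the log2 scale in liver, with 561 TPM in replicate 1 and 9.65 to 28.9 in the other chow livers. Slc39a4, a zinc importer, fell by 1.97 on the log2 scale in liver, from 4.87 to 16.1 TPM down to 1.44 to 3.06, with 0.72 ± 0.49 in WAT. Its difference of -2.70 ± 0.63 (adjusted p = 0.0222) was lost without WAT chow replicate 2 and without WAT HSD replicate 1.

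Among the most positive differences outside lipid synthesis, Lepr, the leptin receptor (chr4:101717137-101815352), was at 2.12, 5.68, 2.76 and 0.855 TPM in liver on chow and at 12.1, 7.42, 11 and 9.24 on HSD. In WAT it was at 3.35, 2.95, 1.88 and 3.25 on chow and at 0.620, 0.834, 0.728 and 1.10 on HSD. The diets were apart in both tissues in opposite order, but the change passed in liver (2.06 ± 0.41) and not in WAT (-1.09 ± 0.48, adjusted p = 0.201). The difference was 3.16 ± 0.63 (adjusted p = 0.0107). Abcd2, a peroxisomal importer of long acyl-CoAs, rose in liver by 2.26 ± 0.24, from 0.193 to 0.860 TPM up to 2.66 to 3.97, and stood at -0.47 ± 0.18 in WAT, with 192 to 227 TPM on chow and 123 to 144 on HSD (difference 2.73 ± 0.30, adjusted p = 0.0002). Cdkn1a, the cell cycle inhibitor p21, rose in liver by 2.59 ± 0.40, from 2.03 to 9.99 TPM up to 14.2 to 51.1, with 0.15 ± 0.34 in WAT (difference adjusted p = 0.0158). Acpp (2.55 ± 0.63) and Stap1 (2.46 ± 0.58) also had higher responses in liver, in 10 and 14 of 16 leave-outs. Myh11, the smooth muscle myosin, differed by 2.31 ± 0.65, which held in 4 of 16. It stood at 33.2 TPM in WAT chow replicate 4 and 15.5 to 15.8 in the other 3.

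Some negative differences concerned transcripts that are abundant in liver and scarce in WAT. H2-Q10, a secreted class I molecule of liver in a family of near-identical genes, so that its reads may be split uncertainly, was at 4.55, 2.17, 14.9 and 11.6 TPM in WAT on chow and at 71.8, 78.5, 86.1 and 99.0 on HSD. Liver held 975 to 1233 TPM on chow and 1108 to 1449 on HSD. It rose in WAT by 3.53 ± 0.38 (adjusted p = 0.000119), with 0.16 ± 0.32 in liver and a difference of -3.37 ± 0.49 (adjusted p = 0.00192). Cyp2f2, a cytochrome P450 of liver and lung, rose in WAT by 1.77 ± 0.30, from 10.3 to 29.7 TPM up to 44.4 to 97.8, with 412 to 980 TPM in liver (difference -2.58 ± 0.42, adjusted p = 0.00376). Hpd, a tyrosine-degrading enzyme, rose in WAT by 1.11 ± 0.20 on 42.9 estimated counts on chow and 69.6 on HSD, summed over 4 libraries, with 63949.1 and 66872 in liver (difference -1.25 ± 0.23). Alb and Cps1 rose in WAT by 1.46 ± 0.31 and 1.21 ± 0.32, with no called difference. Of 7 hepatocyte markers tested in both tissues, 3 rose in WAT, beside 1.84% of all genes, and none in liver, beside 4.24%. Hpd and Cps1, 2 of these 3, passed the count filter in WAT through the HSD group, where they were higher. Cps1 held 38 estimated counts on chow and 68 on HSD over 4 WAT libraries. The filter therefore favoured rises in WAT, and the count of 3 is no result about hepatocyte markers as a set. The summed TPM of the 15 hepatocyte genes overlapped between the diets in WAT (2180 to 3761 on chow, 2345 to 4370 on HSD). The source of these transcripts in WAT was not tested. Chchd10, a mitochondrial intermembrane protein, differed by -2.62 ± 0.62 without passing in either tissue, and Alas2, the heme synthase of red cells, fell by 1.04 on the log2 scale in liver with 0.39 ± 0.23 in WAT (difference -1.43 ± 0.31). Summed globin and red cell TPM was 2190 to 4830 in WAT on chow and 3838 to 4807 on HSD, and 165.2 to 298.7 and 125.3 to 473.9 in liver.

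Genes of the respiratory chain, the proteasome and the ribosome were mostly higher on HSD in WAT. All 71 tested genes of the respiratory chain and ATP synthase had higher mean levels on HSD in WAT, 14 of them past the threshold, with a median of 0.47, while in liver 38 of 71 were higher, none passed, and the median was 0.01. Over all genes 1.84% rose in WAT and 4.24% in liver. Higher means on HSD were found for 5139 of all 10416 genes in WAT and for 5060 in liver. The share of counts from mitochondrial genes moved with the diet as well, from 7.56 to 8.27% on chow up to 8.79 to 9.96% on HSD in WAT, without overlap, and from 6.23 to 8.62% up to 8.12 to 10.3% in liver, with overlap. Its part in the result was not tested. Uqcrh and Uqcrfs1, subunits of complex III, rose in WAT by 0.54 ± 0.11 and 0.43 ± 0.09 with 0.22 ± 0.11 and 0.26 ± 0.09 in liver. Ndufb10, of complex I, differed by -0.83 ± 0.22 (held in 4 of 16). Of 14 proteasome genes 8 rose in WAT and 1 in liver, with Psmb4 at 0.59 ± 0.11 in WAT and 0.20 ± 0.11 in liver and Psma2 rising in both tissues (0.35 ± 0.08 in WAT and 0.36 ± 0.08 in liver). Of 74 cytosolic ribosomal proteins 73 had higher means in WAT and 19 in liver, with 1 call. Mpc1, the mitochondrial pyruvate carrier, rose in WAT by 0.88 ± 0.15 with 0.44 ± 0.15 in liver. With the length trend removed, the WAT calls fell from 14 to 0 in the respiratory chain, where 68 of 71 means were still higher, and from 8 to 2 in the proteasome, while 9 respiratory chain genes then rose in liver. The ribosomal proteins went from 73 to 39 higher means, and Mpc1 no longer passed (adjusted p = 0.0662). Without WAT chow replicates 2 and 4 the respiratory chain and proteasome had 0 calls in WAT.

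**Figure D5:**
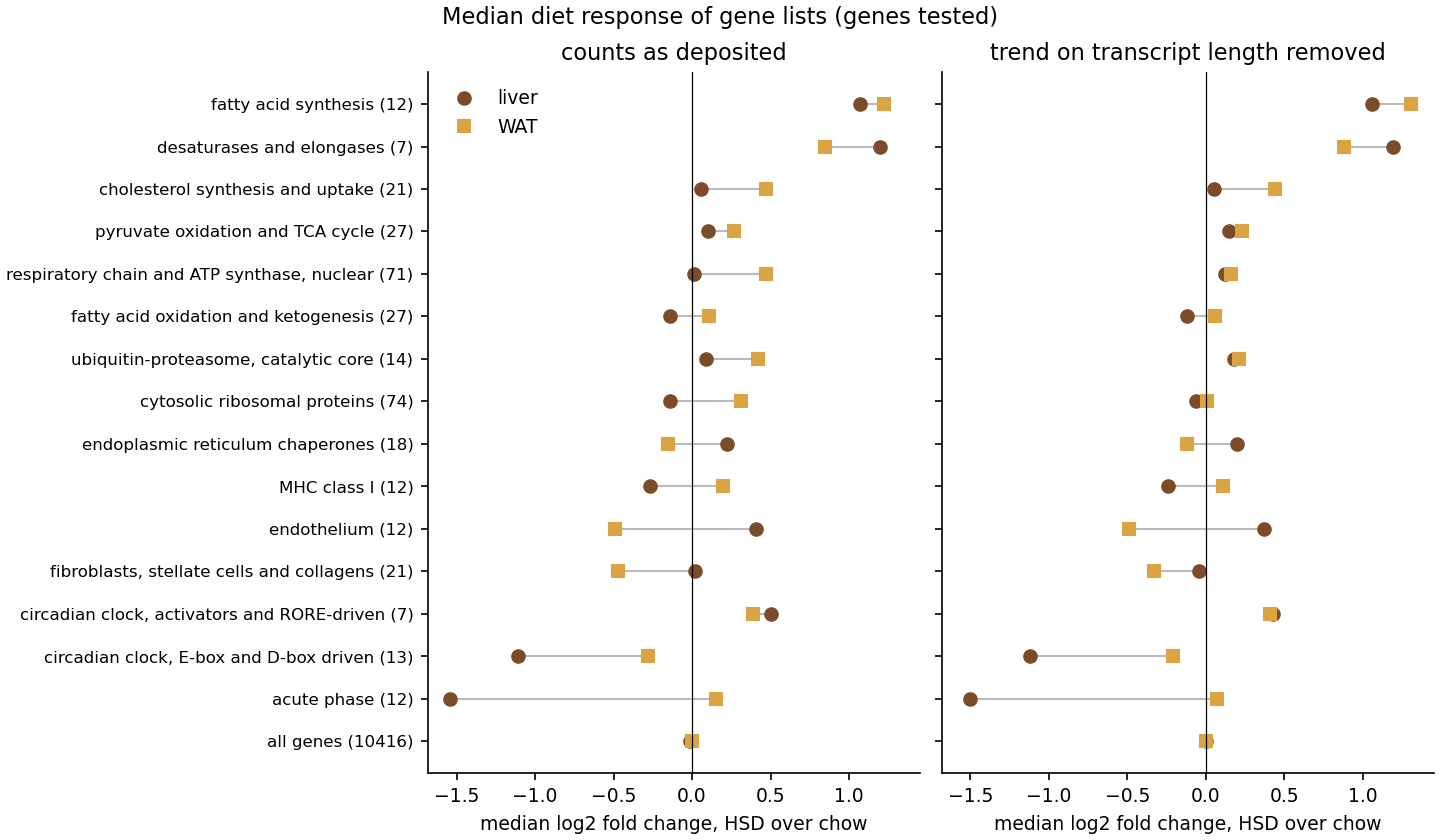
Median log2 fold change on HSD over chow of 15 gene lists and of all genes, in liver (circles) and WAT (squares), from the counts as deposited (left) and with each library's trend on transcript length removed (right). The lipogenic, endothelial, clock and acute phase medians are alike in both panels, whereas the WAT medians of the respiratory chain (0.47 to 0.16) and ribosomal proteins (0.31 to 0.01) shrink.

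The 10416 genes, divided by length into 3 classes of 3472, showed the same tilt. The median difference between tissues was -0.252 in the shortest class, -0.021 in the middle and 0.213 in the longest. Differences with a higher liver response numbered 31, 100 and 233 across these classes, and those with a lower response 126, 67 and 32. With the trend removed, 264 and 180 differences were called, of which 357 were among the original 589. Among named genes, 55 of 74 difference calls, 89 of 92 liver calls and 37 of 72 WAT calls held after its removal.

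Of 16 genes of insulin signalling, 2 rose and 1 fell in liver, 1 fell in WAT, and 3 differed with the liver response higher, beside 3.49% of all genes. All-gene shares were 4.24% rising and 3.94% falling in liver and 2.13% falling in WAT. Grb14, an adaptor that restrains the insulin receptor, was at 25.4, 20.2, 23 and 19.2 TPM in WAT on chow and at 11.1, 8.96, 11.6 and 7.95 on HSD. It fell by 1.19 on the log2 scale in WAT (adjusted p = 0.00129), stood at 0.21 ± 0.15 in liver, and differed by 1.40 ± 0.23 (adjusted p = 0.00367). Npr3, the clearance receptor for natriuretic peptides and an adipocyte marker, fell by 1.01 on the log2 scale in WAT, from 290 to 412 TPM down to 141 to 190, with 0.25 ± 0.24 in liver (difference adjusted p = 0.0174). The WAT calls and the differences of Grb14 and Npr3 held in all 16 leave-outs. Npr3 was the only 1 of 9 adipocyte markers tested that passed in WAT, where 2.13% of all genes fell. Of the 9, 6 had higher means on HSD in WAT, with a median of 0.21. Summed TPM of 15 adipocyte genes in WAT was 38280 to 53570 on chow and 46640 to 55880 on HSD. Pik3ca, the catalytic subunit of PI3 kinase, differed by 0.65 ± 0.16 (held in 9 of 16). Of 18 chaperones of the endoplasmic reticulum, 14 had higher means on HSD in liver and 4 in WAT. In liver 1 rose and 1 fell, beside 4.24% and 3.94% of all genes, and in WAT 1 fell, beside 2.13%. The difference passed for 2 with the liver response higher, again beside 3.49% of all genes. Edem1, which targets misfolded proteins for disposal, differed by 0.88 ± 0.18 (adjusted p = 0.0115, held in all 16), with 0.41 ± 0.13 in liver and -0.47 ± 0.13 in WAT, where the call held in 6 of 16. Hspa5 (BiP) differed by 0.81 ± 0.22 (held in 6 of 16). Manf rose and Xbp1 fell in liver (0.63 ± 0.16 and -0.65 ± 0.14), with 0.14 ± 0.16 and -0.25 ± 0.14 in WAT. Of 12 class I MHC genes, all had lower responses in liver than in WAT and 2 differences passed, beside 2.16% of all genes, H2-Q10 and H2-D1 (-0.45 ± 0.13 in liver, 0.41 ± 0.13 in WAT, difference adjusted p = 0.0181).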

How the data were processed

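RNA was sequenced from liver and WAT of wild-type mice on chow or HSD, 4 libraries per group, grouped by the genotype, tissue and diet in the labels. The authors deposited an estimated count and a TPM value per gene for 19521 genes. Per the submitters' processing notes, kallisto and the build GRCm38 were used, with the version and annotation not given in the sources used here. Estimated counts are not divided by transcript length and TPM are, so the 2 need not move together.

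Rounded counts went into edgeR (version 4.0.16, under R 4.3.3; robust quasi-likelihood fit, 4 group means, 12 residual degrees of freedom). Genes passed edgeR's filterByExpr with a minimum count of 10 in each tissue by itself (11091 in liver, 12746 in WAT, 10416 in both), and TMM factors were computed within each tissue. The difference is the liver response minus the WAT response. Standard errors were approximated from the fold change and its F statistic. Alternatives used limma 3.58.1 and DESeq2 1.42.0. A gene's length was estimated from the ratio of estimated count to TPM. No 2 libraries of a group agreed within sampling noise (lowest chi-square per degree of freedom 7.525 over 24 pairs). On simulated counts for the difference over 10416 genes, 14.9%, 50.7% and 83.3% of 1.5-fold, 2-fold and 4-fold changes were recovered, with 4 false calls.

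Named genes were Pklr and Pkm, the 8 largest differences in each direction, the 8 shared rises and 8 shared falls and up to 12 opposite genes with the largest smaller change, all at a log2 CPM averaging 1 or more in each tissue, and in each list up to 4 members with the smallest p of the difference and up to 2 in each tissue. The members, lists and rule were chosen with earlier results of these data known. Promoter windows are from RefSeq (GRCm38.p6), and 242 of 243 genes had a position. Some genes that the rule names are not reported here.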

Additional observations from a re-analysis of the deposited data

Results flagged for a closer look

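Over 114 genes taken for this check, 32 of 456 groups of 4 libraries held 1 library far from the other 3, where chance flags about 1 in 20 groups. Values are TPM. In liver on chow, replicate 1 had Fads2 at 208 (285 to 291 in the others), Per3 at 0.473 (1.34 to 1.41 in the others), Npas2 at 0.519 (0.0604 to 0.0952 in the others), Orm3 at 145 (3.03 to 18.2 in the others), Saa3 at 561 (9.65 to 28.9 in the others) and Cps1 at 861 (1130 to 1173 in the others). In liver on chow, replicate 2 had Slc2a5 at 2.48 (1.59 to 1.64 in the others), Kdr at 7.75 (5.21 to 5.37 in the others), Cd93 at 0.818 (0.545 to 0.578 in the others), Sparc at 29.4 (21.5 to 22.5 in the others), Grb14 at 32.3 (39.7 to 40.2 in the others) and Abcc3 at 35.9 (22.6 to 22.8 in the others). In liver on chow, replicate 3 had Mfsd3 at 2.41 (3.16 to 3.25 in the others) and Fabp5 at 397 (68.2 to 124 in the others). In WAT on chow, replicate 1 had Cps1 at 0.401 (0.182 to 0.218 in the others) and Cdk18 at 2.41 (1.5 to 1.62 in the others). In WAT on chow, replicate 3 had Ppp1r3c at 27.3 (14.8 to 16.7 in the others), Insig2 at 68.5 (124 to 129 in the others), Gpam at 75.6 (126 to 136 in the others), Nudt7 at 93.9 (72.5 to 75.1 in the others), Pecam1 at 102 (131 to 137 in the others) and Spp1 at 13.3 (1.48 to 2.54 in the others). In WAT on chow, replicate 4 had Vwf at 40.2 (11 to 15.8 in the others) and Myh11 at 33.2 (15.5 to 15.8 in the others). In liver on HSD, replicate 3 had Gpi1 at 146 (80.7 to 91 in the others), Fgd5 at 0.963 (0.537 to 0.574 in the others) and Plce1 at 1.45 (0.855 to 0.940 in the others). In liver on HSD, replicate 4 had Acss2 at 125 (216 to 229.6 in the others). In WAT on HSD, replicate 2 had Npr3 at 190.2 (141 to 143 in the others). In WAT on HSD, replicate 3 had Sesn3 at 4.66 (5.86 to 6.0 in the others), Mfsd3 at 4.61 (7.25 to 7.74 in the others) and Chchd10 at 23.1 (9.66 to 11.9 in the others).

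The diet response differed between the tissues, by the test of the difference itself, for 67 of the 114 genes taken for this check. Pgrmc2, whose difference passed as described above, was not among the 114. The response was higher in liver, as liver minus WAT, for Spp1 5.41, Pnpla3 3.38, G6pdx 3.36, Lepr 3.16, Abcd2 2.73, Acpp 2.55, Stap1 2.46, Cdkn1a 2.45 and Myh11 2.31 on the log2 scale. Next came Vwf 2.23, Hhex 2.12, Cd93 1.85, Plxnc1 1.65, Gpam 1.61, Fads3 1.59, Pdk4 1.52, Elovl5 1.51 and Sesn3 1.49. Next came Insig2 1.48, Fgd5 1.48, Grb14 1.4, Ehd3 1.37, Cemip2 1.32, Mpeg1 1.3, Cd9 1.29, Npr3 1.26 and Pecam1 1.18. Next came Acsl5 1.16, Tek 1.16, Flt1 1.11, Lipa 1.11, Col6a1 1.05, Kdr 1.0, Mrc1 0.89, Edem1 0.88 and Hspa5 0.81. Next came Dlat 0.73, Sparc 0.68 and Pik3ca 0.65.

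The response was lower in liver for Mt2 -7.05, Mt1 -6.26, Orm3 -5.21, Slc2a5 -3.8, H2-Q10 -3.37, Slc39a4 -2.7, Chchd10 -2.62, Cyp2f2 -2.58 and Clcn2 -2.35 on the log2 scale. Next came Mfsd3 -1.85, Dop1b -1.82, Nudt7 -1.65, Gpt -1.53, Bhlhe40 -1.53, Alas2 -1.43, Acaa1a -1.28 and Rarres2 -1.25. Next came Hpd -1.25, Gpat4 -1.14, Taldo1 -1.0, Pcx -0.98, Pkm -0.95, Pdhb -0.86, H2-D1 -0.85, Ndufb10 -0.83 and Aldoa -0.77. Next came Cry2 -0.72 and Hadh -0.65.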

How the results depend on the processing

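The count of differences (589) was 322 with no low-count filter, 1104 with DESeq2, 1556 with limma on log2(TPM + 1), 14 with the clock score as a covariate, 371 without liver chow replicates 1 and 3, 90 without WAT chow replicates 2 and 4, and 163 without liver HSD replicate 3 and WAT chow replicate 2, a pair chosen after seeing the data. In the same order where they moved by over 1.5 times, liver calls (852) were 47 with the clock score and 426 without the liver chow pair. WAT calls (414) were 827 with DESeq2, 1162 with limma, 735 with limma voom, 113 with the clock score, 211 with the length trend removed, 40 without the WAT chow pair and 170 without the added pair. Shared genes (32) were 18 with no filter, 84 with DESeq2, 0 with the clock score, 21 with length removed, and 20, 2 and 13 without the 3 pairs. Opposite genes (19) were 11 with no filter, 52 with DESeq2, 67 with limma, 30 with all 32 libraries of both genotypes, 1 with the clock score, 12 with length removed, and 11, 1 and 5 without the 3 pairs. Fits without 2 libraries test fewer samples, and otherwise the cause was not tested. Leaving out 1 library at a time gave 247 to 1054 differences, 483 to 991 liver calls, 127 to 702 WAT calls, 12 to 43 shared and 3 to 49 opposite genes. With the clock score, Arntl (-0.06, adjusted p = 0.94) and Ciart (0.50, adjusted p = 0.749) reversed in liver. Both genes are part of the score, so the loss of their calls was built in and is no result about them. Among named genes, 43 of 74 difference calls, 53 of 92 liver calls and 21 of 72 WAT calls held with each of the 16 libraries left out. At 4 libraries per group, the simulation recovered few 1.5-fold changes, so smaller changes were mostly not detectable.

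The labels do not say that a title number marks a mouse. Same-numbered liver and WAT libraries correlated at -0.004 to 0.204, over 0.1 in 3 of 8 pairs, and 5 of 8 liver libraries correlated best with their own number, a hint from the data that numbers may mark mice. The main test used no block, and a block by these numbers was fitted only as an alternative. With the title number as a block, 564 differences were called, 311 higher and 253 lower in liver.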
